A study of Mus musculus with 4 samples.

Results

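Matrix metalloproteinases (MMPs) and their tissue inhibitors (TIMPs) were followed as transcripts of 10 genes, Mmp2, Mmp3, Mmp8, Mmp9, Mmp12, Mmp13, Mmp14, Timp1, Timp2 and Timp3, chosen by symbol. All 10 were measured in each of the 4 single-cell libraries, whose annotations share 30406 genes. Droplet 3′ single-cell RNA libraries came from C57BL6J mice that carried the syngeneic KPCA cancer cell lines, labelled as fallopian tube epithelial cells. The groups were ascites, taken at 9 weeks of age, and omental tumors grown from line KPCA.A, KPCA.B or KPCA.C, taken at 8 weeks of age with 4 tumors pooled for each line. The labels do not say which of the lines gave the ascites. They give no alleles for the lines, and no untreated omentum or other control was analysed here. Each group had 1 library, so no difference below has a replicate check, no test was run, and every interval is a 95% interval for counting error only.

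MMPs are zinc-dependent proteases that cut collagens, elastin, other matrix proteins and growth factors, and most are secreted as inactive precursors. TIMPs bind the active site of MMPs and block it. In peritoneal tumors these proteases and inhibitors are made by cancer cells as well as by the macrophages, neutrophils and fibroblasts around them, and the balance between them bears on how matrix is degraded during spread over the omentum.

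Of the 10 genes, Mmp13 (ENSMUSG00000050578), Mmp12 (ENSMUSG00000049723), Mmp3 (ENSMUSG00000043613) and Mmp8 (ENSMUSG00000005800) lie on the plus strand of mouse chromosome 9 (GRCm38). They lie in this order within 295.971 kb, and genes between them were not looked up. Mmp13, a collagenase, spans chr9:7272514-7283331. Mmp12, the macrophage elastase, spans chr9:7344381-7369499. Mmp3, the stromelysin that cuts proteoglycans and activates other MMPs, spans chr9:7445822-7455975, and Mmp8, the neutrophil collagenase, spans chr9:7558456-7568485. From each of these members to the next, the gaps are 61.05 kb, 76.323 kb and 102.481 kb. The other members are on other chromosomes, with Mmp2 at chr8:92827291-92853420, Mmp9 at chr2:164940780-164955850, Mmp14 at chr14:54431612-54445364, Timp1 at chrX:20870166-20874735, Timp2 on the minus strand at chr11:118301069-118355740 and Timp3 at chr10:86300372-86349506.

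Upstream sequence from RefSeq (GRCm38.p6) was matched for 8 of the 10 genes, with 9 start sites; Mmp2 and Mmp9 were not matched. The motif TGANTCA, bound by AP-1 (the Fos and Jun family of transcription factors), was found in the 250 bases upstream of 3 of these 9 start sites, those of Mmp3, Mmp13 and the second start site of Mmp12. It is its own reverse complement, so both strands were searched. Of all 32851 promoters of this length, 6.75% hold it. TATAAA, searched on both strands, was found for Mmp3 and Mmp13 and is held by 12.4% of all promoters. The 100 bases before each of these 3 start sites are shown, 5′ to 3′ on the plus strand. As given below, Mmp3 was highest in fibroblast-like cells, and Mmp12 and Mmp13 had their highest median in macrophage-like cells. The first start site of Mmp12 and that of Mmp8 hold no TGANTCA. The Mmp12 site shown lies inside the span given for the gene. Capitals mark TGANTCA and TATAAA matches.
Mmp13, chr9:7272414-7272513: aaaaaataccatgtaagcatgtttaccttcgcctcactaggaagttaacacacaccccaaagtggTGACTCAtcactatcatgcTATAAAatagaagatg
Mmp12, chr9:7347274-7347373: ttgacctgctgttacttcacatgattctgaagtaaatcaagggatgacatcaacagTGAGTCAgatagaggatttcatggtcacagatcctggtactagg
Mmp3, chr9:7445722-7445821: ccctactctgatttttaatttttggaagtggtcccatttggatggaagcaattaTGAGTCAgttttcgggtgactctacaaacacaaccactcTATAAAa
The AP-1 match begins 35 bases before the start for Mmp13, 44 bases for Mmp12 and 46 bases for Mmp3, and TATAAA begins 16 bases before it for Mmp13 and 7 bases for Mmp3. A match is a description of these letters and not evidence of binding.

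The matrices held 3118 barcodes for ascites, 5703 for KPCA.A, 3358 for KPCA.B and 4110 for KPCA.C, against 5000 cells stated for the study, and 2921, 2648, 2586 and 3098 were used in the same order. Totals ran from 7420674 UMIs (unique molecular identifiers, each for 1 captured transcript) in ascites to 95130645 in KPCA.C. Median depth of the cells used was 2077 UMIs in ascites and 7910 to 14660 in the tumors. Over the mitochondrial limit lay 5.42% of all barcodes in ascites, 53.1% in KPCA.A, 22.5% in KPCA.B and 24.3% in KPCA.C. Cells used in KPCA.B and KPCA.C shared 16 barcodes, other pairs of libraries 0 to 4. Classes were named "-like" from marker genes after clustering without any MMP or TIMP gene. Tumor epithelial-like cells numbered 6 in ascites, 763 in KPCA.A, 364 in KPCA.B and 1116 in KPCA.C. Against the single label for all cells, most cells of each library were thus of other classes, and the epithelial marker Epcam was at 836 CPM in cluster 10 of the tumor epithelial-like cells but at 7.32 CPM in cluster 4 and 0.504 CPM in cluster 15. Macrophage-like cells numbered 2362, 863, 644 and 1138, and fibroblast-like cells 4, 235, 122 and 169, in the same library order.

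Levels are CPM, the UMIs of a gene per 1000000 UMIs summed over all cells of a class in a library. A 3′ UMI level is not compared between genes. Over the 7 classes with at least 20 cells in all 3 tumors (macrophage-like, fibroblast-like, endothelial-like, tumor epithelial-like, dendritic cell-like, T cell-like and plasma cell-like), fibroblast-like cells had the highest median level of 6 genes (Mmp2, Mmp3, Mmp14, Timp1, Timp2 and Timp3). Macrophage-like cells had the highest median of the other 4 (Mmp8, Mmp9, Mmp12 and Mmp13). Neutrophil-like cells, measured in KPCA.A and KPCA.B only, stood above macrophage-like cells for Mmp9, and for Mmp8 in KPCA.B. In these summed data, fewer expressing cells and less RNA per cell are told apart only where shares of cells are given.

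**Figure D1:**
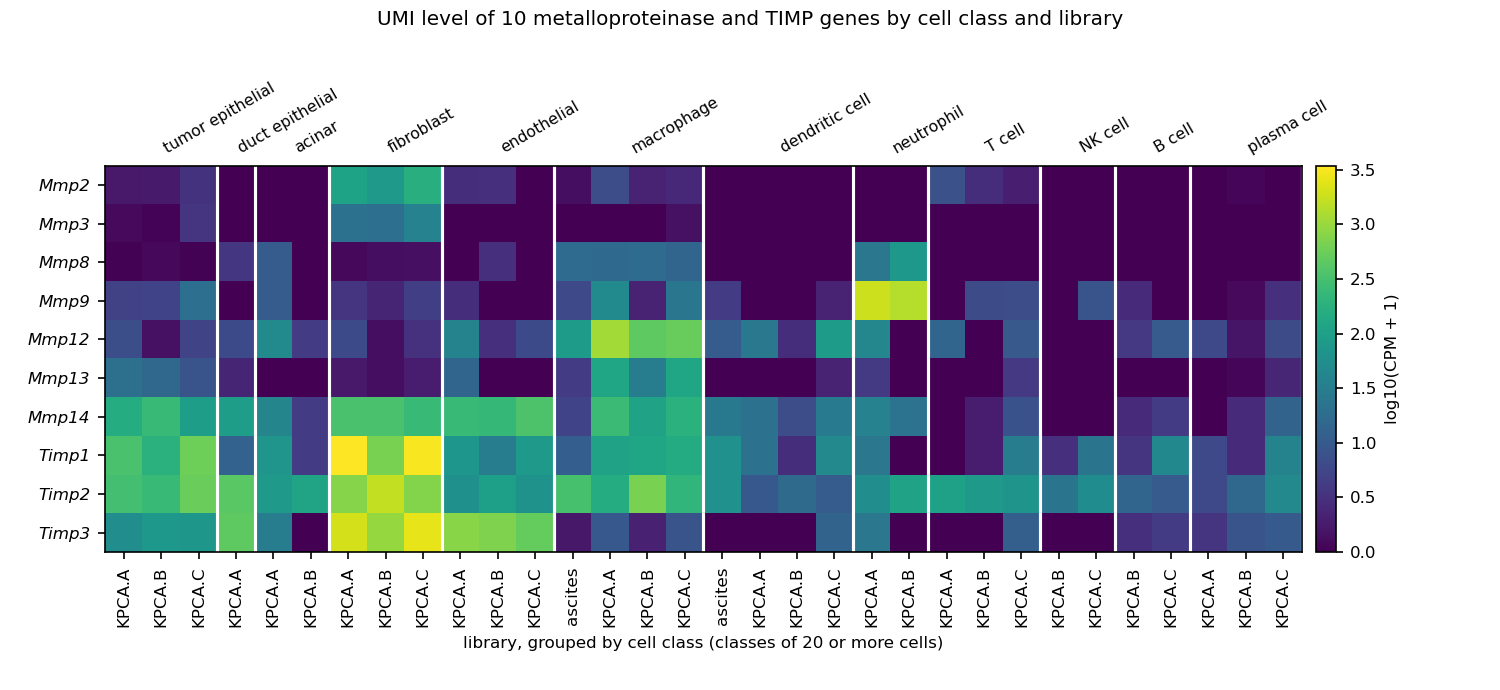
Heat map of the level of the 10 genes (rows) as log10(CPM + 1), by library within each cell class (columns; classes of at least 20 cells, 1 library each, no error shown). The brightest tiles are Timp1 in fibroblast-like cells of KPCA.A (3451 CPM) and KPCA.C (3190.5 CPM), while Mmp9 stands out in neutrophil-like cells and Mmp12 in macrophage-like cells.

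Among the gelatinases, which cut denatured collagen and type IV collagen, Mmp2 was a fibroblast transcript. Mmp2 was at 111 CPM (102 to 120) in fibroblast-like cells of KPCA.A, at 82.2 (72.2 to 93.2) in KPCA.B and at 165 (156 to 174) in KPCA.C. Every other class had a median of at most 1.89 CPM, and its range did not overlap that of fibroblast-like cells. Fibroblast-like cells held 90.5% of the Mmp2 UMIs of KPCA.A, 89.7% of those of KPCA.B and 85.7% of those of KPCA.C. In ascites, with 4 fibroblast-like cells, Mmp2 had 2 UMIs in all.

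Mmp9, the other gelatinase, is an enzyme that neutrophils store in granules. It was at 1871 CPM (1727 to 2024) in neutrophil-like cells of KPCA.A and 1415 CPM (1183 to 1679) in those of KPCA.B, where 64.7% and 63.6% of the cells held a UMI of it. In macrophage-like cells Mmp9 was at 5.06 CPM in ascites, 48.8 in KPCA.A, 1.20 in KPCA.B and 23.5 in KPCA.C. Its range over the 3 tumors there overlapped those of T cell-like and tumor epithelial-like cells, so their order is not set. The classes that held most Mmp9 UMIs differed by line, since neutrophil-like cells held 59.6% of them in KPCA.A and 63.9% in KPCA.B, whereas tumor epithelial-like cells held 61.7% in KPCA.C, which had 11 neutrophil-like cells.

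Mmp3 was at 19.7 CPM (16.2 to 23.8) in fibroblast-like cells of KPCA.A, at 18.9 (14.3 to 24.5) in KPCA.B and at 36.0 (31.9 to 40.6) in KPCA.C. No other class reached a median of 1 CPM. Fibroblast-like cells held 93.97% of the Mmp3 UMIs of KPCA.A and 96.6% of those of KPCA.B, but 51.9% of those of KPCA.C. In KPCA.C, tumor epithelial-like cells held a further 24.1%, at 2.35 CPM (1.96 to 2.80), and the 197 cells of cluster 8.0 held 22.8%. Cluster 8.0 was left unnamed because tumor cell genes and fibroblast collagen genes lead it together. In ascites Mmp3 had 0 UMIs; in its macrophage-like cells that allows a level of up to 0.506 CPM by a floor of 3 counts.

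The collagenases Mmp8 and Mmp13, which cut fibrillar collagen, were highest in myeloid cells. Mmp8 was at 16.4 CPM in macrophage-like cells of ascites, 15.4 in KPCA.A, 16.2 in KPCA.B and 13.2 in KPCA.C, with intervals that overlap for all 4 libraries. In neutrophil-like cells it was at 23.9 CPM (10.3 to 47.1) in KPCA.A and 75.6 CPM (30.4 to 156) in KPCA.B, from 8 and 7 UMIs, so in KPCA.A its interval overlaps that of macrophage-like cells (12.4 to 18.9). In KPCA.B, 1 macrophage-like cell held 38 of the 149 Mmp8 UMIs.

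Mmp13 was at 3.21 CPM (1.93 to 5.01) in macrophage-like cells of ascites, 124 (115 to 134) in KPCA.A, 29.2 (25.8 to 32.9) in KPCA.B, and at 122 (117 to 128) in KPCA.C. Tumor epithelial-like cells came next, at 19.4 CPM in KPCA.A, 14.3 in KPCA.B and 7.37 in KPCA.C. Macrophage-like cells exceeded tumor epithelial-like cells 6.39-fold (5.73 to 7.13) in KPCA.A, 2.05-fold (1.68 to 2.51) in KPCA.B and 16.6-fold (14.9 to 18.6) in KPCA.C. The transcript was concentrated in few cells in both classes. Only 12.7% of macrophage-like cells in KPCA.A held an Mmp13 UMI, and the 10% of cells with most of it held 96.8% of its UMIs. Among T cell-like cells, taken as the background that free RNA gives, 0% of cells in KPCA.A and KPCA.B and 1.78% in KPCA.C held one.

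Mmp12 was all but confined to macrophage-like cells, which held 98.1% of its UMIs in ascites, 95.3% in KPCA.A, 99.5% in KPCA.B and 94.8% in KPCA.C. It stood there at 85.9 CPM (78.6 to 93.7) in ascites, 1107 (1080 to 1134) in KPCA.A, 460 (446 to 474) in KPCA.B, and at 513 (501 to 524) in KPCA.C. Dendritic cell-like cells followed with a median of 24.9 CPM over the tumors. Like Mmp13, Mmp12 was carried by a minority of cells. A UMI was found in 12.4% of macrophage-like cells in ascites, 38.8% in KPCA.A, 19.3% in KPCA.B and 28.2% in KPCA.C. After each cell was thinned to 1000 UMIs the shares were 7.31%, 25.2%, 8.81% and 14.1% in the same order, against 0% to 2.22% in T cell-like cells of the tumors, whose median depth was 2739 to 5042 UMIs against 5802 to 12138 UMIs in macrophage-like cells of the tumors. The highest single cell held 408 Mmp12 UMIs in KPCA.A, 453 in KPCA.B and 598 in KPCA.C, but 13 in ascites.

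Mmp14, a membrane-anchored protease that activates the Mmp2 precursor, was the most broadly found of the 7 proteases across stromal, myeloid and tumor classes. In fibroblast-like cells it was at 328 CPM (313 to 343) for KPCA.A, 331 (310 to 352) for KPCA.B and 239 (228 to 250) for KPCA.C. Endothelial-like cells were at 241 CPM (201 to 287) in KPCA.A, 229 (189 to 276) in KPCA.B, and at 349 (292 to 414) in KPCA.C. The ranges of fibroblast-like, endothelial-like, macrophage-like and tumor epithelial-like cells overlap from one to the next, and leaving out KPCA.A or KPCA.B changed which class had the highest median. Mmp14 was near 0 in T cell-like cells, at 0 to 6.83 CPM against 90.8 to 251 CPM in tumor epithelial-like cells. A UMI of it was held by 0% to 2.37% and 65.1% to 90.3% of these cells in turn. These shares are not thinned, and median depth was 2739 to 5042 UMIs in T cell-like and 26053 to 49112.5 in tumor epithelial-like cells.

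Timp1, an inhibitor of most secreted MMPs that acts poorly on Mmp14, was at 3451 CPM (3402 to 3500.1) in fibroblast-like cells of KPCA.A, 665 (636 to 695) in KPCA.B, and at 3190.5 (3150.4 to 3231) in KPCA.C. Tumor epithelial-like cells had 332 CPM in KPCA.A, 181 in KPCA.B and 569 in KPCA.C, and macrophage-like cells 109 to 150 CPM in the tumors. The order fibroblast-like, tumor epithelial-like, macrophage-like held in each tumor, with no overlap between the ranges of these 3 classes. Lymphocytes give the background that free RNA can make. In KPCA.C 15.98% of T cell-like and 18.8% of B cell-like cells held a Timp1 UMI, against 51.0% of macrophage-like cells; after thinning to 1000 UMIs a cell these shares were 2.96%, 4.35% and 12.98%.

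Timp2, which inhibits MMPs and also links the Mmp2 precursor to Mmp14, was at 791 CPM (768 to 815) in fibroblast-like cells of KPCA.A, 1658 (1612 to 1705) in KPCA.B, and at 765 (746 to 785) in KPCA.C. Tumor epithelial-like cells (251 to 528 CPM) and macrophage-like cells of the tumors (154 to 671 CPM) overlap in range. T cell-like cells stood at 66.4 to 105 CPM, above plasma cell-like cells (4.95 to 45.2 CPM) and dendritic cell-like cells (8.31 to 15.6 CPM). Whether free RNA gives these lower levels was not tested.

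Timp3, which binds to matrix and also inhibits ADAM proteases, was at 2068 CPM (2030.3 to 2106) in fibroblast-like cells of KPCA.A, 959 (924 to 995) in KPCA.B, and at 2561 (2526 to 2598) in KPCA.C. Endothelial-like cells followed with 799 CPM (725 to 879), 704 CPM (631 to 783) and 496 CPM (428 to 572) in the same order, and tumor epithelial-like cells with 52.9 to 76.5 CPM. These 3 ranges do not overlap. In macrophage-like cells Timp3 was at 0.675 CPM in ascites, 8.38 in KPCA.A, 1.09 in KPCA.B and 7.42 in KPCA.C, within the range of T cell-like cells (0 to 10.7 CPM). After thinning, 0.978%, 0% and 0.737% of macrophage-like cells held a Timp3 UMI in the 3 tumors in that order, against 0%, 0% and 1.78% of T cell-like cells. In KPCA.C no macrophage-like cell held more than 2 of the 105 UMIs. The median of T cell-like cells over the tumors was 0 CPM. Whether these macrophage-like values are background or expression was not tested.

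The first comparison asked how macrophage-like cells of ascites differ from those of the omental tumors. Mmp14, Mmp13, Mmp12 and Timp1 were lower in ascites than in every tumor, Timp2 lay between the tumors, and Mmp8 was close to level within the named class. The unnamed ascites clusters 6.1 and 6.2, which had more Mmp8, are outside that class. A gene is called here where the ratio of CPM, with 5 CPM added to both, passes 2-fold and both sums hold at least 50 UMIs together. In ascites, clusters 0, 5 and 6 made up the class, and in tumors clusters 1, 2, 14, 16, 19 and 24 held nearly all of it, so the cells compared fall into different clusters.

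Mmp14 was at 4.22 CPM (2.73 to 6.23) in ascites, against 254 in KPCA.A, 108 in KPCA.B and 183 in KPCA.C. It was 60.2-fold (40.6 to 93.3) lower than in KPCA.A, 25.6-fold (17.2 to 39.7) lower than in KPCA.B and 43.4-fold (29.3 to 67.1) lower than in KPCA.C. After thinning to 1000 UMIs, 0.3998% of ascites macrophage-like cells held an Mmp14 UMI, against 20.7% in KPCA.A, 9.62% in KPCA.B and 18.5% in KPCA.C. The difference in level was thus also a difference in how many cells held the transcript at equal depth.

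Mmp13 was 38.7-fold (24.6 to 64.7) lower in ascites than in KPCA.A, 9.12-fold (5.73 to 15.4) lower than in KPCA.B and 38.1-fold (24.4 to 63.5) lower than in KPCA.C. For Mmp12, ascites was 12.9-fold (11.8 to 14.1) below KPCA.A, 5.35-fold (4.88 to 5.88) below KPCA.B and 5.97-fold (5.45 to 6.54) below KPCA.C. Timp1 was at 10.5 CPM (8.02 to 13.4) in ascites, against 109 in KPCA.A, 124 in KPCA.B and 150 in KPCA.C, or 10.4-fold, 11.9-fold and 14.3-fold lower. The intervals of ascites and of each tumor are apart for all 4 of these genes.

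Timp2 went the other way against some tumors. It was at 319.5 CPM (305 to 334) in ascites, against 154 in KPCA.A, 671 in KPCA.B and 210.5 in KPCA.C, so it was 2.07-fold (1.91 to 2.24) higher than in KPCA.A, 2.10-fold (1.99 to 2.21) lower than in KPCA.B and 1.52-fold (1.43 to 1.61) higher than in KPCA.C. Mmp8 stood at 1.06-fold (0.790 to 1.43) of KPCA.A, 1.01-fold (0.775 to 1.31) of KPCA.B and 1.24-fold (0.960 to 1.59) of KPCA.C. These Mmp8 ratios leave out the unnamed ascites clusters 6.1 and 6.2, whose higher levels are given under other observations. Mmp9 was 9.63-fold (6.60 to 14.5) lower than in KPCA.A and 4.65-fold (3.19 to 6.99) lower than in KPCA.C, and held too few UMIs for a call against KPCA.B. Timp3 had 4 UMIs in ascites and passed 2-fold against KPCA.A and KPCA.C, whose own values lie within the range of T cell-like cells.

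Of the members with enough UMIs, 7 of 8 were called against KPCA.A, where 38.3% of all 9315 genes were called. Against KPCA.B 5 of 6 were called, with 37.5% of all genes, and against KPCA.C 6 of 8, with 31.0% of all genes. The minimum of 50 UMIs is for both sums together, for members as for all genes. Mmp9, Mmp13, Mmp14 and Timp3 held fewer than 50 in ascites, so where they passed it was through the tumor sum. Timp3, whose values lie within the range of T cell-like cells, is among the calls against KPCA.A and KPCA.C. The share of all genes called lower in ascites was 31.1%, 31.3% and 25.6%, and the median of all genes lay at −0.61, −0.61 and −0.54 on the log2 scale, so ascites values are low for genes at large. The members' median was −2.65, −2.21 and −2.01. Beyond all 3 tumors, 4 of 6 members were lower (Mmp12, Mmp13, Mmp14 and Timp1) against 20.7% of all genes, and 0 of 6 were higher, against 4.46% of all genes. Median-of-ratios scaling moved the median of all genes by 0.46, 0.42 and 0.39 on the log2 scale toward ascites. Mmp12, Mmp13, Mmp14 and Timp1 were still called lower under it (log2 ratios of −4.39 for Mmp14 and −3.06 for Mmp12 against KPCA.A), while Timp2 against KPCA.B at −0.53 and Timp3 against KPCA.C at −0.96 were no longer called.

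**Figure D2:**
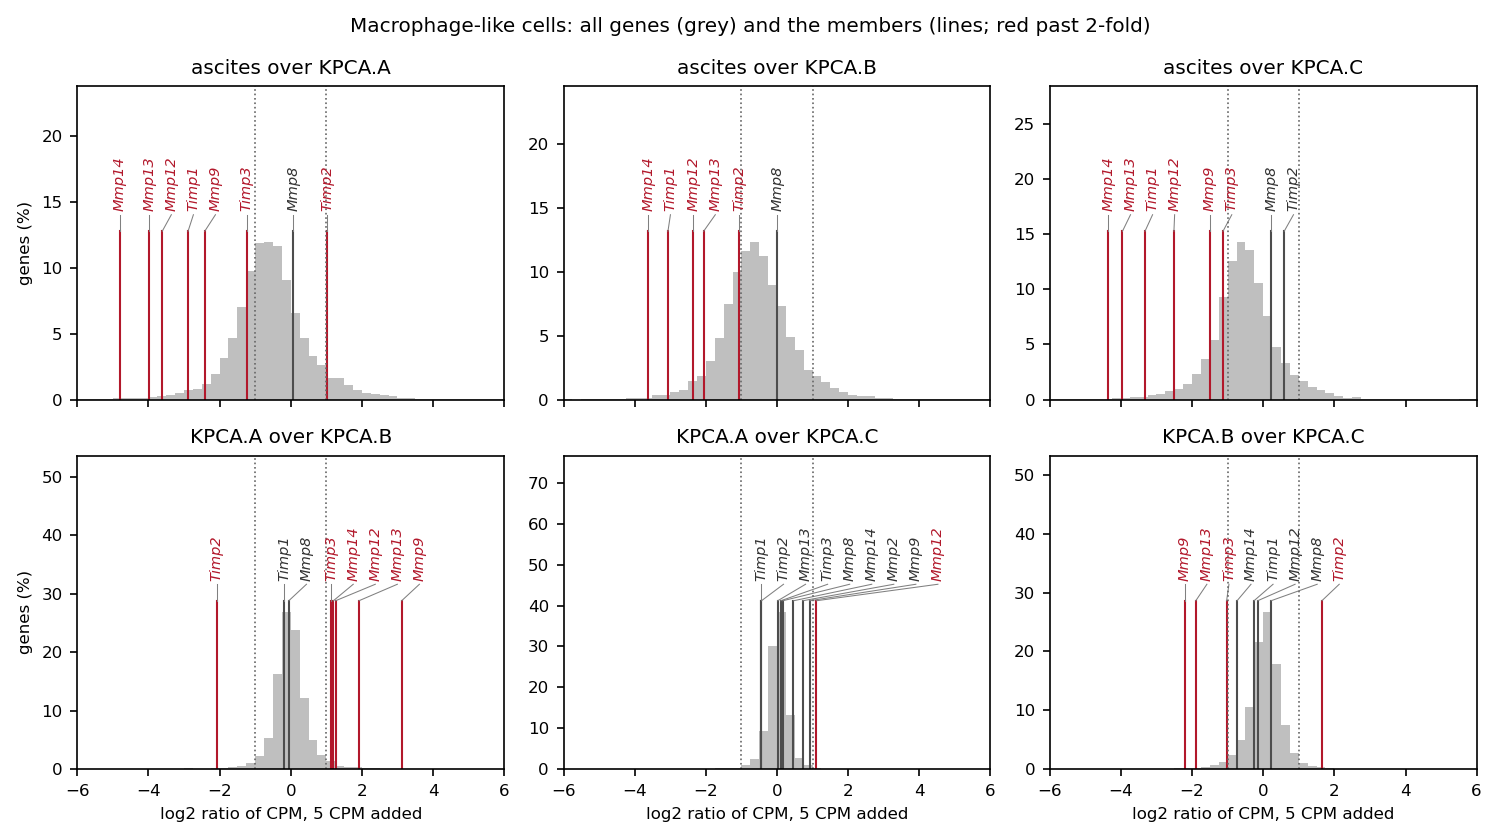
Distribution of the log2 ratio over all genes (grey bars, percent of genes in each bin) in macrophage-like cells, with each member as a vertical line (red past 2-fold, dotted lines) and 6 library pairs as panels. In the ascites panels Mmp14, Mmp13, Mmp12 and Timp1 lie left of the bulk of genes, whose own median is below 0; the line panels place Timp2 opposite Mmp9 and Mmp13.

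Other transcripts moved with ascites. The dissociation stress list holds genes such as Fos, Jun and Egr1 that tissue digestion can raise. It was lower in ascites for 15 of 18 genes against KPCA.A and 15 of 18 against KPCA.C. Against KPCA.B, 8 of 18 were lower and 2 were higher. Of all genes, 31.1% were called lower in ascites against KPCA.A, 31.3% against KPCA.B and 25.6% against KPCA.C. Tissue digestion with collagenase and DNase is described for the omental tumors. Summed neutrophil markers in macrophage-like cells were at 1803 CPM in ascites, against 307 in KPCA.A, 128 in KPCA.B and 346 in KPCA.C, with 12 of 12 of these genes found in ascites. Summed macrophage markers were at 5466 CPM in ascites and 18393 to 20374 CPM in tumors, with all 16 found in each. Their part in the results was not tested, and depth, the Cell Ranger version of the files and age differ between ascites and tumors along with the tissue, so these cannot be told apart.

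Among tumors, macrophage-like cells of KPCA.B differed from those of KPCA.A and KPCA.C in Timp2, which was higher in KPCA.B, and in Mmp9 and Mmp13, which were lower. KPCA.A had more Mmp12 than both other lines. KPCA.A over KPCA.B gave 6 calls among 8 members with enough UMIs, where 5.92% of all genes were called. KPCA.A over KPCA.C gave 1 of 9, against 1.63% of all genes, and KPCA.B over KPCA.C 4 of 8, against 5.54%. The 3 pairs share libraries, so these counts are not independent.

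Timp2 in KPCA.B, at 671 CPM (654 to 688), was 3.19-fold (3.05 to 3.33) above KPCA.C, and KPCA.A was at 0.230-fold (0.214 to 0.247) of KPCA.B. A share of 35.6% of KPCA.B macrophage-like cells held a Timp2 UMI after thinning, against 11.5% in KPCA.A and 14.6% in KPCA.C, and 24.2% in ascites. Mmp13 in KPCA.A was 4.25-fold (3.69 to 4.90) above KPCA.B, and KPCA.B stood at 0.239-fold (0.209 to 0.272) of KPCA.C. In KPCA.B 30 cells held all 269 Mmp13 UMIs and 1 of them held 94. In KPCA.C 1 cell held 472 of 1732, so these Mmp13 folds rest on few cells. Mmp9 in KPCA.A was 40.8-fold (22.4 to 82.6) above KPCA.B, whose 644 cells held 11 UMIs. In KPCA.A 41 cells held all 285 Mmp9 UMIs and 1 of them held 106, so this fold rests on few cells. Timp3 passed 2-fold as well, from 49 UMIs in KPCA.A, 10 in KPCA.B and 105 in KPCA.C. Its levels lie within the range of T cell-like cells, as described above.

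Mmp12 in KPCA.A was 2.41-fold (2.32 to 2.50) above KPCA.B and 2.16-fold (2.09 to 2.23) above KPCA.C. Mmp14 in KPCA.A was 2.35-fold (2.17 to 2.55) above KPCA.B and 1.39-fold (1.30 to 1.48) above KPCA.C. Timp1 differed little, with KPCA.A at 0.879-fold (0.797 to 0.969) of KPCA.B and 0.730-fold (0.668 to 0.798) of KPCA.C. In KPCA.B, however, 1 cell held 233 of the 1144 Timp1 UMIs. Over both other lines, being called lower was found in KPCA.B for 3 members (Mmp9, Mmp13 and Timp3), against 1.98% of all genes, and being called higher for 1, against 1.36%. For KPCA.A, 1 member (Mmp12) was called higher than both, against 0.455% of all genes.

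**Figure D3:**
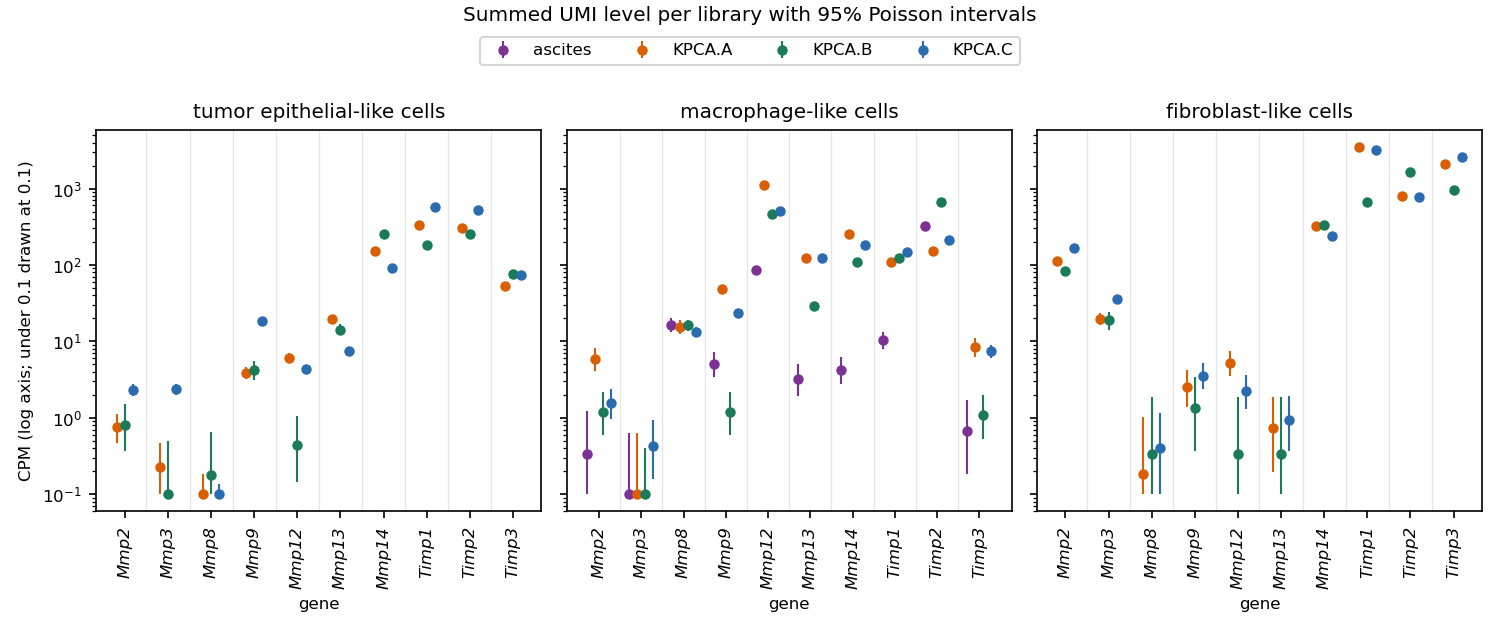
Level of the 10 genes in CPM (log axis, values under 0.1 drawn at 0.1) in macrophage-like, fibroblast-like and tumor epithelial-like cells, with 1 point per library and 95% Poisson intervals. In macrophage-like cells the ascites points lie under the tumor points for Mmp12, Mmp13, Mmp14 and Timp1, and in fibroblast-like cells KPCA.B lies low for Timp1 and Timp3 and high for Timp2.

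The macrophage-like cells of the lines were spread over different clusters. In KPCA.A, 46.2% lay in cluster 1 and 30.4% in cluster 2. In KPCA.B, 36.0% lay in cluster 16, 32.5% in cluster 1 and 15.7% in cluster 19. In KPCA.C, 52.7% lay in cluster 2 and 26.2% in cluster 1. Cluster 1 had much of the monocyte receptor Ccr2, cluster 2 of the arginase Arg1, cluster 16 of Retnla, and cluster 19 of Chil3 and Alox15.

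Member levels differed between these clusters. Over the 3 tumors together, Timp2 was at 1032 CPM in cluster 16 and 704 CPM in cluster 19, against 89.6 CPM in cluster 1 and 157 CPM in cluster 2. Mmp13 was at 211 CPM in cluster 2, against 31.5 CPM in cluster 1, 58.6 CPM in cluster 16 and 1.85 CPM in cluster 19. Mmp12 was at 1007 CPM in cluster 2, 1276 CPM in cluster 14 (a cluster of low depth) and 1269 CPM in cluster 24, whose cells carry the division marker Mki67, but at 34.5 CPM in cluster 19. Mmp14 was at 124 to 237 CPM in tumor clusters other than 19, where it was at 5.55 CPM. For these 3 proteases the values of cluster 19 lay within the span of the ascites clusters, which were at 16.9 to 100.1 CPM for Mmp12, 0 to 7.39 CPM for Mmp13 and 0.328 to 20.5 CPM for Mmp14. Chil3, which marks cluster 19 at 53943 CPM, was at 23882 to 26368 CPM in ascites clusters 0.0, 0.1 and 5.

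**Figure D4:**
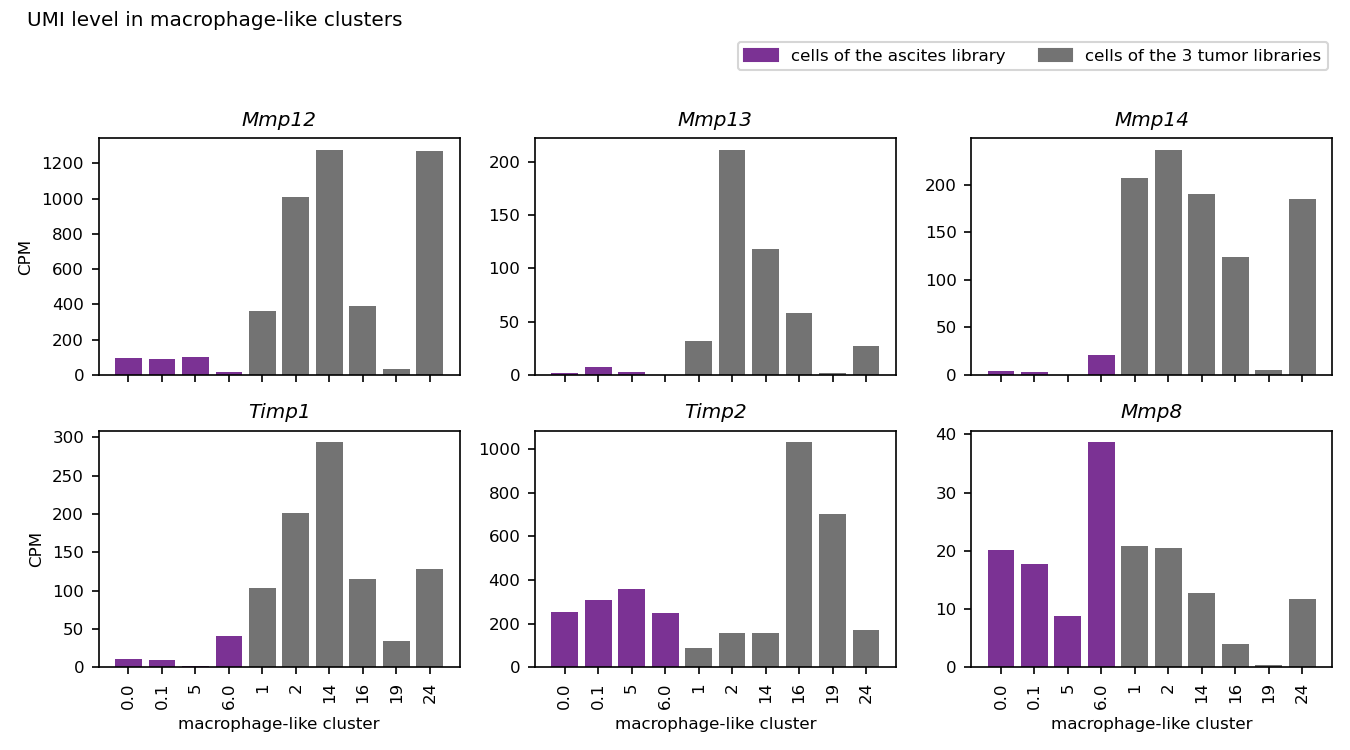
Bars give the level (CPM, from 0, no error shown) of 6 genes in each macrophage-like cluster, in cells of the ascites library (clusters 0.0, 0.1, 5 and 6.0) and of the 3 tumor libraries together (clusters 1, 2, 14, 16, 19 and 24). Timp2 peaks in clusters 16 (1032 CPM) and 19 (704 CPM), where Mmp13 is at 58.6 and 1.85 CPM, and Mmp14 is low in the ascites clusters and in cluster 19.

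Within a cluster some line differences were smaller, and for Mmp12 in cluster 16 the order of KPCA.A and KPCA.B turned round. In cluster 1, Timp2 was at 90.1 CPM in KPCA.A, 114 in KPCA.B and 71.3 in KPCA.C, with no pair past 2-fold. Mmp12 there was at 509 CPM in KPCA.A, 327 in KPCA.B and 257.5 in KPCA.C. Mmp13 in cluster 1 kept its difference, at 35.1 CPM in KPCA.A, 8.67 in KPCA.B and 44.8 in KPCA.C, and KPCA.A was 4.05-fold (2.49 to 6.92) above KPCA.B. In cluster 2, Mmp12 was at 1933 CPM in KPCA.A and 748 CPM in KPCA.C, a ratio of 2.58 (2.48 to 2.69), and Mmp9 at 122 CPM in KPCA.A and 37.8 CPM in KPCA.C. In cluster 16, Timp2 was at 1104 CPM in KPCA.B and 614 in KPCA.C, a ratio of 1.80 (1.59 to 2.03). In cluster 16, Mmp12 was at 20.2 CPM in the 20 cells of KPCA.A, which was 0.0458-fold (0.00944 to 0.134) of KPCA.B at 441 CPM (232 cells). Timp1 in cluster 1 was at 74.2 CPM in KPCA.A and 68.5 in KPCA.B, below KPCA.C at 156, a difference that the class as a whole did not show past 2-fold.

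Stress and inducer genes moved with the KPCA.B values in macrophage-like cells. KPCA.A was higher than KPCA.B in 11 of 18 genes of the dissociation stress list and in 10 of 15 inducers of MMP genes with enough UMIs. KPCA.B was under KPCA.C in 11 of 18 and 10 of 15. Of all genes, 5.92% were called in either direction for KPCA.A over KPCA.B and 5.54% for KPCA.B over KPCA.C. The list medians on the log2 scale were 1.69 and 1.51 for KPCA.A over KPCA.B, beside −0.03 over all genes. For KPCA.B over KPCA.C the list medians were −1.58 and −1.26, beside 0.07 over all genes. Osm, a cytokine that raises TIMP1 in fibroblasts, was at 37.5 CPM in KPCA.B against 333 in KPCA.A and 359 in KPCA.C. Il1b, a cytokine that induces MMP genes, was at 98.0 CPM in KPCA.B against 824 in KPCA.A and 575 in KPCA.C. Junb stands in both lists, and Fos of the stress list was at 108 CPM in KPCA.B, 636 CPM in KPCA.A and 660 CPM in KPCA.C. Markers of other cells also differed in this class. Summed neutrophil markers were at 307 CPM in KPCA.A, 128 in KPCA.B and 346 in KPCA.C, so they were lowest in KPCA.B, as Mmp9 was. Summed acinar markers were at 3015 CPM in KPCA.A, 612 in KPCA.B and 591 in KPCA.C. B cell markers were at 87.9, 664 and 96.8 CPM, and tumor epithelial markers at 278, 84.5 and 279.99 CPM in the same order. The part of these transcripts in the member values was not tested.

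In fibroblast-like cells no protease passed 2-fold between lines, while all 3 TIMPs did. Timp1 in KPCA.A was 5.19-fold (4.96 to 5.44) above KPCA.B, and KPCA.B was at 0.208-fold (0.199 to 0.218) of KPCA.C. Timp3 in KPCA.A was 2.16-fold (2.07 to 2.25) above KPCA.B, and KPCA.B was at 0.374-fold (0.360 to 0.389) of KPCA.C. Timp2 had the opposite order, with KPCA.A at 0.477-fold (0.458 to 0.497) of KPCA.B and KPCA.B 2.17-fold (2.08 to 2.25) above KPCA.C. So KPCA.B was lowest in Timp1 and Timp3 and highest in Timp2.

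Among the proteases, Mmp14 in KPCA.A was at 0.992-fold (0.918 to 1.07) of KPCA.B and 1.37-fold (1.29 to 1.47) of KPCA.C. Mmp2 in KPCA.B was at 0.499-fold (0.433 to 0.573) of KPCA.C, and Mmp3 at 0.523-fold (0.385 to 0.700), both just inside the 2-fold limit once 5 CPM were added. KPCA.A over KPCA.B gave 3 calls of 6 members with enough UMIs, against 5.19% of all genes. KPCA.A over KPCA.C gave 0 of 6, against 1.92%, and KPCA.B over KPCA.C 3 of 6, against 5.08%. In KPCA.B, 2 members were called lower than in both other lines, against 2.16% of all genes, and 1 was called higher, against 0.95%.

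The class holds cells of different kinds. Cluster 21 (54 cells in KPCA.A, 27 in KPCA.B and 55 in KPCA.C) had high Postn, Lum and Cthrc1. Cluster 9 (181, 95 and 114 cells) had less of these and more Wt1, with Upk3b and Cxcl13 in some sub-clusters. Upk3b and Wt1 are mesothelial markers, and the 12 mesothelial markers, all found in each line, summed to 1256 CPM in KPCA.A, 2061 in KPCA.B and 1000.2 in KPCA.C over the class.

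Mmp2 belonged mostly to cluster 21. The level of Mmp3 was higher in cluster 21 than in cluster 9 of each line, where it was at 15.8 CPM in KPCA.A, 3.38 in KPCA.B and 6.23 in KPCA.C. In KPCA.A, though, the larger cluster 9 held 61.2% of the Mmp3 UMIs and cluster 21 held 32.8%. Mmp2 was at 527 CPM (483 to 573) in cluster 21 of KPCA.A, 664 (576 to 762) in KPCA.B, and at 518 (486 to 551) in KPCA.C, against 15.4, 15.03 and 42.0 CPM in cluster 9. Mmp14 was higher in cluster 21 too, with 663 CPM, 703 CPM and 430 CPM against 251 CPM, 288 CPM and 172 CPM in cluster 9. Within cluster 21, Mmp3 was highest in sub-cluster 21.b, which has the progenitor fibroblast markers Pi16 and Clec3b, at 394 CPM in KPCA.A, 299 in KPCA.B and 381 in KPCA.C (12, 16 and 11 cells). Sub-cluster 21.b had little Timp3, at 319 CPM in KPCA.A and 425 CPM in KPCA.B, against 6230 CPM in sub-cluster 21.c of KPCA.A and 6098 CPM in sub-cluster 21.d of KPCA.C. Timp1 reached 9615 CPM in the 24 cells of sub-cluster 21.c in KPCA.A.

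The line differences in Timp1 were found in both clusters. In cluster 21, Timp1 was at 6650 CPM in KPCA.A, 1390 in KPCA.B and 3329 in KPCA.C, and in cluster 9 at 2715 CPM, 581 CPM and 3142 CPM. Timp3 in cluster 21 was at 4157 CPM, 941 CPM and 3627 CPM, a ratio of 4.42 (3.92 to 4.996) for KPCA.A over KPCA.B, but in cluster 9 this ratio was 1.65 (1.58 to 1.73). Timp2 was highest in KPCA.B in both clusters. The difference was past 2-fold in cluster 9 (KPCA.A at 0.476-fold of KPCA.B) and short of it in cluster 21 (0.587-fold). In each line Timp2 was higher in cluster 9 than in cluster 21. It was at 818 CPM in cluster 9 of KPCA.A, 1717 in KPCA.B and 788 in KPCA.C, against 674, 1149 and 701 CPM. Mmp3 in cluster 21 was at 36.8 CPM in KPCA.A, below KPCA.B at 153 and KPCA.C at 122, where 8, 8 and 15 cells held a UMI of it. Make-up also differed inside cluster 9, since 85 cells of KPCA.A and 50 of KPCA.C were in sub-cluster 9.0, but 3 of KPCA.B, while 63 KPCA.B cells were in sub-cluster 9.1. In sub-cluster 9.1 Timp1 was at 815 CPM in KPCA.A and 408 in KPCA.B, against 4637 CPM in sub-cluster 9.0 of KPCA.A.

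**Figure D5:**
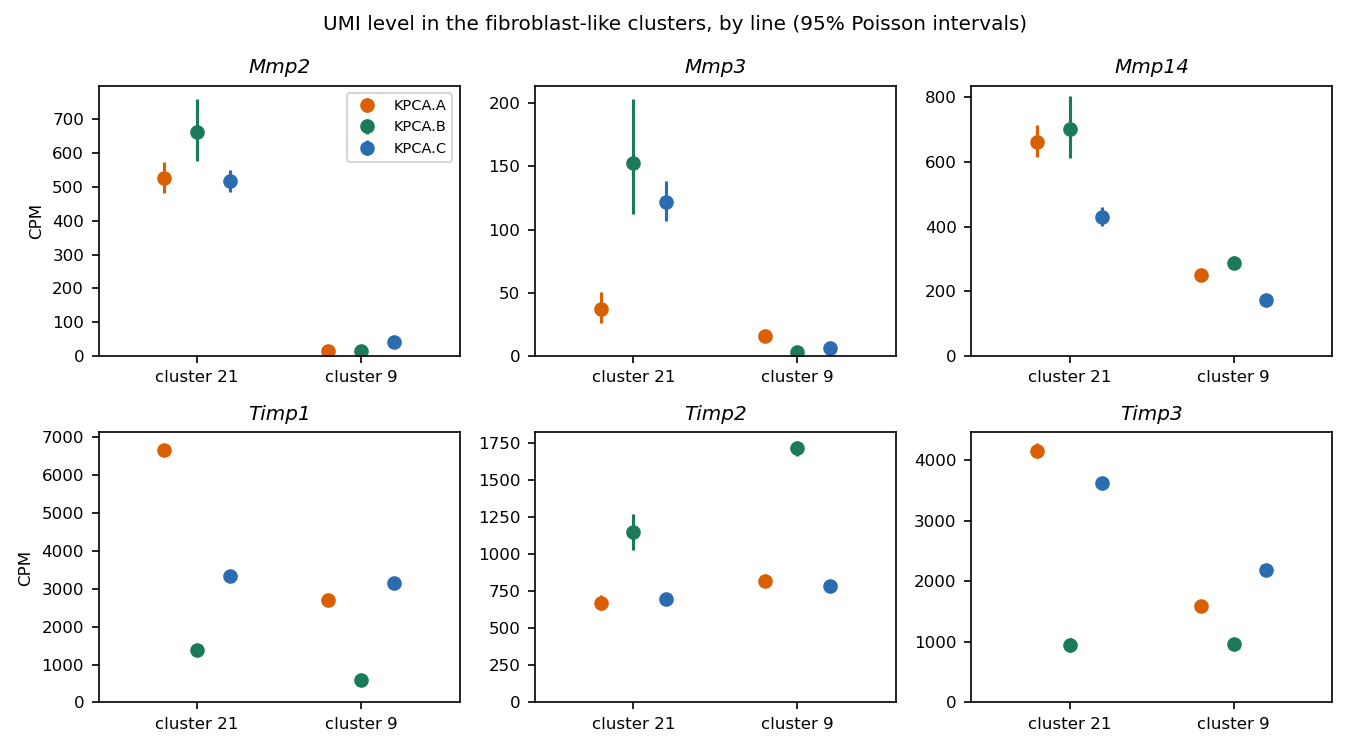
Level (CPM, axis from 0) of 6 genes in fibroblast-like clusters 21 and 9, with 1 point per line and 95% Poisson intervals. Mmp2 is above 500 CPM in cluster 21 of every line and at most 42.0 CPM in cluster 9, while Timp1 is lowest in KPCA.B and Timp2 highest in KPCA.B in both clusters.

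Other values moved with KPCA.B in fibroblast-like cells. Summed B cell markers were at 54.9 CPM in KPCA.A, 2718 in KPCA.B and 170 in KPCA.C, with 5, 12 and 9 of 12 found, and KPCA.B is the library with 575 B cell-like cells. Macrophage markers summed to 306, 1742 and 730.3 CPM, plasma cell markers to 346, 892 and 402 CPM and acinar markers to 1432, 355 and 212 CPM in the same order. The stress list was higher in KPCA.A than KPCA.B for 4 of 18 genes and below KPCA.C in KPCA.B for 9 of 18. Among genes that activate or restrain MMPs, 5 of 19 stood above KPCA.B in KPCA.A, and 7 of 22 stood below KPCA.C in KPCA.B. Of all genes, 5.19% were called in either direction for KPCA.A over KPCA.B and 5.08% for KPCA.B over KPCA.C. Plat, a plasminogen activator, was at 104 CPM in KPCA.B, 487 in KPCA.A and 669 in KPCA.C. The matrix proteins Spp1 (60.3, 916 and 1736 CPM in the same order of lines) and Tnc (25.9, 226 and 171 CPM) were lower in KPCA.B as well. The part of these in the TIMP values was not tested.

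In tumor epithelial-like cells the line pairs gave calls for Mmp9, Mmp12, Mmp14, Timp1 and Timp2. The class was made up differently in each line, with 73.0% of its cells in cluster 4 for KPCA.A, 27.5% for KPCA.B and 9.50% for KPCA.C. Cluster 10 held 21.9% for KPCA.A, 45.9% for KPCA.B and 0.448% for KPCA.C, while clusters 3, 8 and 15 held 32.8%, 32.4% and 24.8% of the class in KPCA.C. KPCA.A over KPCA.B gave 1 call of 7 members with enough UMIs, against 5.72% of all genes. KPCA.A over KPCA.C gave 1 of 9, against 5.57%, and KPCA.B over KPCA.C 4 of 9, against 11.3%. Beyond both other lines, 1 member was called, Mmp9, which was higher in KPCA.C, against 1.63% of all genes. With 20 CPM added neither Mmp9 call held (log2 ratios of −0.70 for KPCA.A over KPCA.C and −0.68 for KPCA.B over KPCA.C), and as a mean over cells KPCA.B over KPCA.C was −0.85.

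Mmp9 was at 18.7 CPM (17.6 to 19.9) in KPCA.C, against 3.83 CPM (3.17 to 4.58) in KPCA.A and 4.19 CPM (3.08 to 5.57) in KPCA.B, so KPCA.A stood at 0.205-fold (0.168 to 0.248) and KPCA.B at 0.224-fold (0.163 to 0.2999) of KPCA.C. Its 1010 UMIs in KPCA.C came from 147 of 1116 cells. Mmp9 in KPCA.C was at 28.3 CPM in cluster 15, at 43.0 CPM in cluster 8.3 and at 2.49 CPM in cluster 4, where KPCA.A had 3.74 CPM and KPCA.B 6.37 CPM. In cluster 4, the one with at least 100 cells of each line, KPCA.C was thus not the highest. Summed neutrophil markers in tumor epithelial-like cells were at 42.8 CPM in KPCA.A, 29.5 in KPCA.B and 16.3 in KPCA.C, and their part in the Mmp9 values was not tested.

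Mmp14 was at 153 CPM (149 to 157) in KPCA.A, 251 (242 to 261) in KPCA.B, and at 90.8 (88.3 to 93.4) in KPCA.C, and KPCA.B was 2.77-fold (2.64 to 2.90) above KPCA.C. Timp1 in KPCA.B was at 0.318-fold (0.304 to 0.333) of KPCA.C, and Timp2 at 0.474-fold (0.456 to 0.493). In cluster 4 these differences were in the same direction but under 2-fold, with Mmp14 at 269.8 CPM in KPCA.B and 158 in KPCA.C, Timp1 at 237.5 and 473 CPM and Timp2 at 330.3 and 433 CPM. Mmp13 in cluster 4 was at 13.8 CPM in KPCA.A and 3.26-fold (2.23 to 4.96) above KPCA.C. In cluster 10, found in KPCA.A and KPCA.B, Timp3 was at 8.05 CPM in KPCA.A and 42.6 CPM in KPCA.B, and Mmp13 at 36.5 CPM and 15.4 CPM. Summed fibroblast markers in tumor epithelial-like cells were 682 CPM in KPCA.A, 411 in KPCA.B and 1004 in KPCA.C, in the same order as Timp1 and Timp2, and their part was not tested.

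Mmp12 in tumor epithelial-like cells was at 6.098 CPM in KPCA.A, 0.445 in KPCA.B and 4.32 in KPCA.C, and KPCA.A was 13.7-fold (5.76 to 42.6) above KPCA.B. After thinning, 0.397% of the cells held an Mmp12 UMI in KPCA.A, 0% in KPCA.B and 0.310% in KPCA.C. In T cell-like cells these shares were 2.22% in KPCA.A, 0% in KPCA.B (up to 1.66% by the interval) and 0% in KPCA.C (up to 2.16%), so tumor epithelial-like cells were not above them beyond counting error. The UMIs were not spread evenly, since 1 tumor epithelial-like cell held 28 of 188 in KPCA.A and 1 held 51 of 233 in KPCA.C. Whether these values are background or expression in few cells was not tested. Mmp2 and Mmp3 in KPCA.C, at 2.30 and 2.35 CPM, exceeded KPCA.A (0.746 and 0.227 CPM) and KPCA.B (0.802 and 0.0891 CPM), but were not called with 5 CPM added.

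Among related genes in tumor epithelial-like cells, matrix substrates were lower in KPCA.B. Of 20 substrates, KPCA.A was above KPCA.B in 6 and below it in 1, where 5.72% of all genes were called in either direction. Of 19 with enough UMIs KPCA.B was below KPCA.C in 11, where 11.3% of all genes were called. Spp1, a secreted matrix protein that MMPs cut, was at 2190.4 CPM in KPCA.B, against 7911 in KPCA.A and 12149.98 in KPCA.C. Vcan and Sparc, at 135 and 771 CPM in KPCA.C, were at 39.995 and 294 CPM in KPCA.A and 8.37 and 302 in KPCA.B. Mmp7, the epithelial matrilysin, was at 1.70 CPM in KPCA.C, against 78.9 CPM in KPCA.A and 63.5 CPM in KPCA.B, and Lcn2, whose human protein binds MMP9, at 4.13 CPM in KPCA.C, 249.3 in KPCA.A and 822 in KPCA.B. The lines differ in cluster make-up as given above, and its part in these values was not tested. Of 18 dissociation stress genes, 3 were called for KPCA.A over KPCA.B, all higher in KPCA.A, against 5.72% of all genes. For KPCA.A over KPCA.C 0 were called, against 5.57%, and for KPCA.B over KPCA.C 1, against 11.3%.

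Among related genes in macrophage-like cells, 6 ADAM and ADAMTS genes had enough UMIs. Of these, 3, 3 and 2 were lower in ascites than in KPCA.A, in KPCA.B and in KPCA.C, and 0, 1 and 0 were higher. The share of all genes called lower was 31.1%, 31.3% and 25.6% in the same order. Adam17, which sheds membrane-bound cytokines, was at 25.8 CPM in ascites, against 139 in KPCA.A and 114 in both KPCA.B and KPCA.C. The cathepsin Ctsl was at 2285 CPM in ascites, against 808, 547 and 952 CPM, while Ctsc was at 259 CPM in ascites, against 1731, 1036 and 1560.5 CPM. Lcn2 was at 341 CPM in ascites, against 7.01 in KPCA.A, 5.33 in KPCA.B and 0.777 in KPCA.C. Of 12 cathepsin genes with enough UMIs, 3 were lower in ascites than in each tumor taken alone, beside the 31.1%, 31.3% and 25.6% of all genes, so their share is near or under the background. Higher in ascites were 1, 2 and 2 of them. Between tumor lines no cathepsin gene in macrophage-like cells was called in any of the 3 pairs.

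Likeness of pattern was described by Pearson's r of log2(CPM + 5) over 22 class and library sums with at least 50 cells, which share libraries and depth, among 6973 genes. Mmp2 was most like Mfap5 (r = 0.98), a microfibril gene, and Mmp3 most like Cpxm1 (r = 0.98). Mmp12 was most like Fcgr1 (r = 0.92), an Fc receptor of monocytes and macrophages, Mmp8 most like Cd300ld (r = 0.95), and Mmp9 most like Cxcr2 (r = 0.91), a chemokine receptor of neutrophils. Mmp13 was most like Apoc2 (r = 0.84) and Mmp14 most like Spred1 (r = 0.92). Timp1 was most like Pdpn (r = 0.89), Timp2 most like Sept8 (r = 0.93) and Timp3 most like Osmr (r = 0.97), the oncostatin M receptor. Between members, Mmp2 and Mmp3 had r = 0.98.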

How the data were processed

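Raw UMI counts per gene and barcode were deposited by the authors, as written by Cell Ranger. Per the file headers its version was 3.0.2 (ascites) or 4.0.0 (tumors); the submitters' processing notes name 3.1.0 and mm10. Other deposited columns are gene identifiers, symbols and barcodes. A cell was used with 300 or more genes, 500 or more UMIs and no more than 15% mitochondrial UMIs. The doublet caller Scrublet (scanpy 1.11.5) marked under 0.5% of cells, so it has not worked and doublets remain. Clustering of all libraries together used 2000 variable genes without Mmp and Timp genes, 30 components, 15 neighbours and Leiden resolution 1 (leidenalg 0.10.2, seed 1). Names rest on at least 3 markers among 100 leading genes. Chosen after seeing the data were the sub-clustering and the limits that name tumor epithelial-like clusters, 500 CPM of Krt8 and of Krt18 and 200 CPM of Cdkn2a. UMIs were summed per class and library over shared genes. Intervals are exact Poisson for levels, conditional Poisson for ratios and Clopper-Pearson for shares (scipy 1.17.1), tried on simulated data. Calls need 2-fold with 5 CPM added, 50 UMIs and 50 cells. Coordinates are those of the GRCm38 annotation. The members, lists and comparisons were chosen with earlier results of these data known. The text names all members and, from each list, up to 4 genes beyond both other lines (or all 3 tumors) with at least 50 CPM, of which a choice is given. Cluster marker genes (Ccr2, Arg1, Retnla, Chil3, Alox15, Mki67, Postn, Lum, Cthrc1, Pi16, Clec3b, Wt1, Upk3b, Cxcl13 and Epcam) fall outside that rule and were chosen after values were seen.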

Additional observations from a re-analysis of the deposited data

Results flagged for a closer look

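Timp2 differed between KPCA.B and KPCA.C in opposite directions by cell class. The log2 ratio of KPCA.B over KPCA.C was 1.65 for macrophage-like cells and 1.11 for fibroblast-like cells, but −1.06 for tumor epithelial-like cells. The levels in KPCA.B, against KPCA.C, were 671 against 210.5 CPM for macrophage-like, 1658 against 765 CPM for fibroblast-like and 251 against 528 CPM for tumor epithelial-like cells. With 1 library per line, the difference between classes was not tested.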

How the results depend on the processing

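No paired analysis was possible because each group had 1 library. Calls among members over the 3 line pairs numbered 6 in tumor epithelial-like, 11 in macrophage-like and 6 in fibroblast-like cells, and 18 over the ascites pairs. With 1 CPM added the tumor epithelial-like count was 10, with 20 CPM added 3, and with cells thinned to 1000 UMIs 3. Thinning gave 7 for macrophage-like cells; it leaves fewer UMIs, so fewer members reach the minimum. Under the other settings each count stayed within 1.5 times. The class with the highest median was kept for 9 to 10 of 10 genes when a tumor library was left out. Of 529 settings of single called ratios, 503 kept their call, 26 fell under 2-fold and 0 changed direction. Dropping the UMI minimum, which is among these settings, cannot change a call already made. Settings in which a called ratio fell under the UMI minimum are left out of the 529. Mmp12 in tumor epithelial-like cells, KPCA.A over KPCA.B, lost its call in 4 of 13 settings, down to 0.35 with 20 CPM added. Timp2 in ascites over KPCA.A lost it in 4 of 13 (lowest 0.87), and Timp2 in fibroblast-like cells lost it in cluster 21 only (−0.77 for KPCA.A over KPCA.B, 0.71 for KPCA.B over KPCA.C). Timp3 in fibroblast-like cells, KPCA.A over KPCA.B, was 0.72 in cluster 9 only. The cause was not tested. Use of cluster 8.0, of clusters 6.1 and 6.2, of single clusters, or of none of cluster 3 or 14 was added after the data were seen. Low UMI counts limit Mmp9 and Timp3 in macrophage-like cells of KPCA.B and ascites.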

Other observations

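Mmp8 in ascites was also found outside the named classes. The unnamed cluster 6.2 (164 cells, led by genes of monocytes and neutrophils) had 204 CPM (155 to 262) and held 30.9% of the Mmp8 UMIs of that library, and cluster 6.1 (228 cells) had 62.9 CPM (42.7 to 89.3) and held 15.98%. In tumors the neutrophil-like cluster 13.1, which has the granule gene Ngp at 5469 CPM, had Mmp8 at 108 CPM, against 8.69 CPM in the largest neutrophil-like cluster, where Mmp9 was at 2389 CPM.

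Of 17 other family genes looked up, 16 were matched. Mmp19 was at 119 CPM in fibroblast-like cells of KPCA.A, 179 in KPCA.B and 102 in KPCA.C, and at 47.9 CPM in macrophage-like cells of ascites, against 71.2 in KPCA.A, 87.8 in KPCA.B and 105 in KPCA.C. Mmp23 was at 115, 166 and 139 CPM in fibroblast-like cells of the same lines. Mmp25, a membrane-anchored protease of leukocytes, was at 6.43 CPM in dendritic cell-like cells of ascites, against 224 in KPCA.A, 124 in KPCA.B and 137 in KPCA.C (132, 34, 35 and 55 cells). Mmp15, a relative of Mmp14, was at 86.7, 116 and 60.4 CPM in endothelial-like cells of the 3 lines and at 157 CPM in duct epithelial-like cells of KPCA.A.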
